A study of Mus musculus with 4 samples.

Results

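The nuclear genes of the mitochondrial respiratory chain and of the ATP synthase were followed across knockout and wild-type collecting duct cells. Members were all non-control probes whose mapped mouse symbol begins with Ndufa, Ndufb, Ndufc, Ndufs or Ndufv (assembly factors named Ndufaf left out), is Sdha, Sdhb, Sdhc or Sdhd, begins with Uqcr, begins with Cox4, Cox5, Cox6, Cox7 or Cox8, or begins with Atp5. The rule found 101 probes of 82 genes among 41174 probes, of which 22944 matched 1 of 16355 symbols. Complex I held 35 genes on 45 probes, complex II 4 genes on 5 probes, complex III 8 genes on 10 probes, complex IV 18 genes on 19 probes and the ATP synthase, complex V, 17 genes on 22 probes. Of the 82 genes, 75 passed the filters and were tested. The 7 others were Cox4i2, Cox6a2, Cox7b2, Cox8b and Cox8c, not well above background on any array, and Ndufv1 and Cox5b, whose spots were marked non-uniform on WT_self replicate 1. A further 6 protein-coding genes that fit the rule had no matched probe here (Ndufa11, Ndufa4l2, Ndufb1, Ndufb4b, Ndufb4c and Ndufv2).

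Complex I takes electrons from NADH and complex II takes them from succinate; both hand them to ubiquinone. Complex III passes them to cytochrome c, complex IV passes them to oxygen, and the ATP synthase uses the proton gradient built by complexes I, III and IV to make ATP. In the kidney, oxidative capacity is highest in the segments that reabsorb most of the filtered salt, the proximal tubule and the thick ascending limb, and lower in the collecting duct. Subunits encoded by mitochondrial DNA are outside the rule.

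The series held 4 two-colour Agilent whole mouse genome arrays, hybridised with RNA from sorted EGFP+ cells of the postnatal day 1 kidney (collecting duct and ureteric bud). Knockout cells came from HoxB7CreEGFP+; PRR flox/flox mice and wild-type cells from CreEGFP+ PRR+/+ mice, so both carried the Cre-EGFP transgene, and Hoxb7 drives it in the ureteric bud lineage. PRR, the (pro)renin receptor, is encoded by Atp6ap2. Arrays KO_vs_WT replicates 1 and 2 carried knockout RNA in Cy5 and wild-type pool 1 or pool 2 in Cy3. WT_self replicate 1 carried pool 1 in both dyes and WT_self replicate 2 carried pool 2 in both dyes. The series text speaks of 2 pooled samples of each genotype, but the source names give the knockout channels no pool number and the number of mice is not stated, so p-values rest on a spread between arrays that could be technical. Groups follow the source name of each channel. Sample titles call the KO_vs_WT arrays wild type and the self arrays knockout, and in the descriptions of the self arrays the pool numbers are swapped. With the titles, every direction between genotypes would turn, and the pools compared below would be knockout pools. With the descriptions, every direction between pools in Cy5 would turn. Over genes, Cy3 of KO_vs_WT replicate 2 (pool 2 by source name) correlated at r = 0.996 with Cy3 of WT_self replicate 2. With Cy3 of WT_self replicate 1 the correlation was 0.955, so the profiles paired as in the source names.

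In Cy5, 18433 to 22734 of 41174 probes were well above background on an array, and 96 of the 101 member probes were so on all 4. In Cy3, 14949 to 18593 probes were above background on 3 arrays but only 32 on KO_vs_WT replicate 1, and none of those was a member probe. That channel was not used, which leaves pool 2 in Cy3 on 2 arrays and pool 1 on 1. The precision is limited by the number of arrays. Atp6ap2 had Cy5 levels of 8.08 and 7.72 on the knockout arrays against 8.37 in pool 1 and 8.51 in pool 2 (log2 intensity). It was below both pools on both knockout arrays, by 0.54 ± 0.17 (log2 difference, SE, 2 arrays a group), and did not pass the limma test (adjusted p = 0.802). All 8 principal cell, all 8 intercalated cell and all 6 ureteric bud tip markers were well above background in Cy5 on all 4 arrays. Detection alone did not set these cells apart. On each array 7 to 9 of 9 proximal tubule, 6 of 7 loop and distal tubule and 6 to 8 of 8 stromal markers were also detected. For endothelium it was 4 or 5 of 6.

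The respiratory chain and ATP synthase genes differed more between the wild-type pools than between knockout and pool 1. The median gene was higher in pool 2 than in pool 1 by 0.55 (log2) in Cy5, while the median of all 16056 genes tested was -0.04. On the scale that gives all 4 Cy5 channels the same distribution, the median knockout difference was 0.10 from pool 1, against 0.00 over all genes, and -0.49 from pool 2, against 0.05. On that scale, 71 of 75 genes were higher in pool 2 than in pool 1, a side taken by 45.1% of all genes tested. Both knockout arrays were below pool 2 in 71 members (36.5% of all genes), above pool 1 in 49 (38.7%) and below pool 1 in 15 (38.3%). In 47 of 75 genes both knockout arrays lay between the pools with pool 1 lowest, an order found in 11.6% of all genes tested.

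These directions are relative to the other genes on the arrays. When each Cy5 channel was centred on its own median instead, the median over all genes itself moved to -0.54 for pool 2 minus pool 1, to 0.59 for knockout minus pool 2, to 0.33 for knockout minus wild type and to 0.06 for knockout minus pool 1. The absolute member medians for the first 3 turned with it, to -0.12, 0.39 and 0.31, and that for knockout minus pool 1 rose from 0.10 to 0.24. Relative to all genes, the members were still higher in pool 2 than in pool 1 (by 0.42, with 69 of 75 above the median of all genes) and lower in knockout than in pool 2 (by 0.19, with 58 of 75 below it). Relative to all genes they were also higher in knockout than in pool 1, by 0.18, with 69 of 75 above the median of all genes, so on that scale knockout lay about as far from pool 1 as from pool 2. The distance between knockout and the mean of both pools nearly closed on that scale, from a member median of -0.21 relative to all genes to -0.02.

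**Figure D1:**
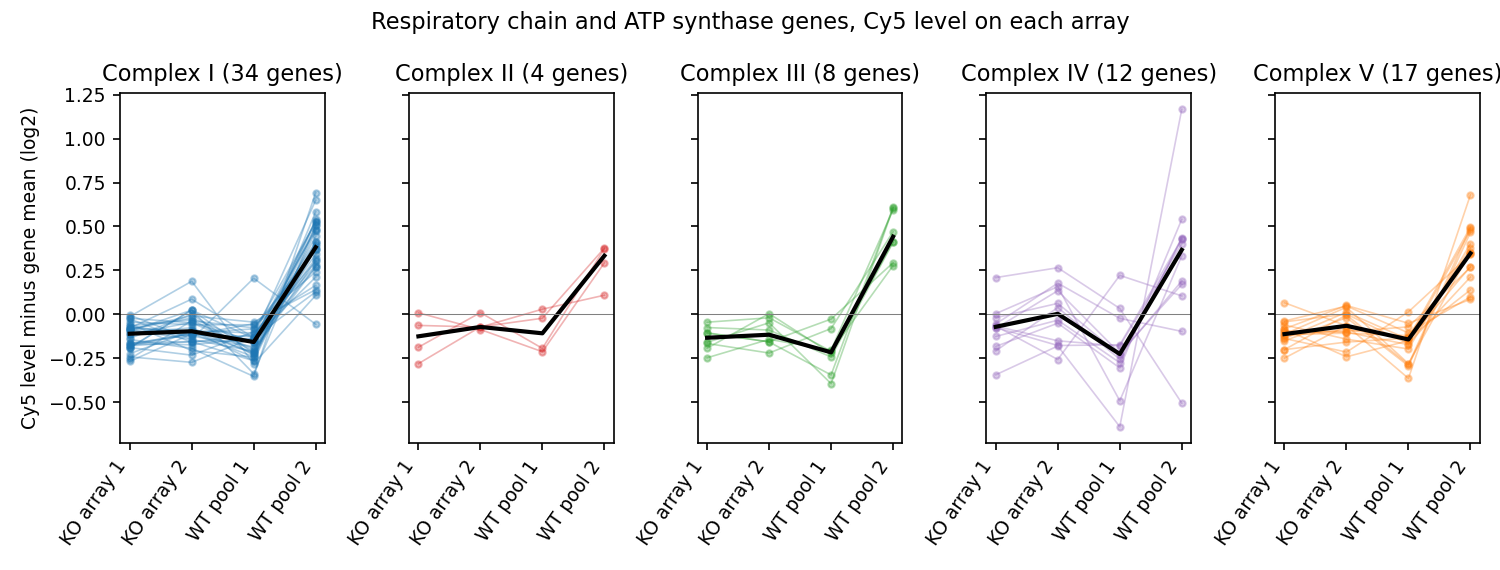
Cy5 level of each tested gene on each array minus the gene's mean over the 4 arrays (log2, vertical axis), by complex. Thin lines are genes and thick lines are medians, on the scale that gives all Cy5 channels 1 distribution. The median of wild-type pool 2 stands above the other 3 arrays in all 5 complexes. With each array centred on its median, the medians of complexes I to V for pool 2 minus pool 1 turn to -0.14, -0.39, -0.03, -0.07 and -0.10, against -0.54 for all genes.

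No gene of the 16056 tested differed between knockout and wild type in Cy5 at an adjusted p of 0.05 by limma with Benjamini-Hochberg adjustment (0 higher, 0 lower, 0.0% of genes each way). The smallest adjusted p was 0.802, over all genes and over the members alike. At an unadjusted p of 0.05, 498 genes were higher (3.1%) and 175 lower (1.09%), and 0 of the 75 members were in either set. Without WT_self replicate 1, which leaves pool 2 alone as wild type and assumes that it varies like the knockout arrays, 52 members were lower and 1 higher at an adjusted p of 0.05 by limma, beside 1702 and 2538 of all genes; without WT_self replicate 2, 0 members passed. The smallest unadjusted member p was 0.057, for Cox7a2l, and the median standard error of a member's difference was 0.21, with a range of 0.11 to 0.60. The knockout arrays differed from each other by a median of 0.08 (absolute log2) and the pools by 0.55. The pools differed by more than the knockout arrays in 73 of 75 members and in 75.1% of all genes.

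Size calls used a difference of at least 0.32 on the log2 scale. Differences of that size on both knockout arrays were found under pool 2 in 51 of 75 members, where 10.5% of all genes had them, and over pool 2 in 1 member, where 15.5% had them. Against pool 1 the same size was reached in 1 member over (3.38% of all genes) and in 0 under (1.58%). Both knockout arrays were below both pools in 14 of 75 members, close to the 17.2% of all genes, and above both pools in 1, where 22.4% of all genes were.

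**Figure D2:**
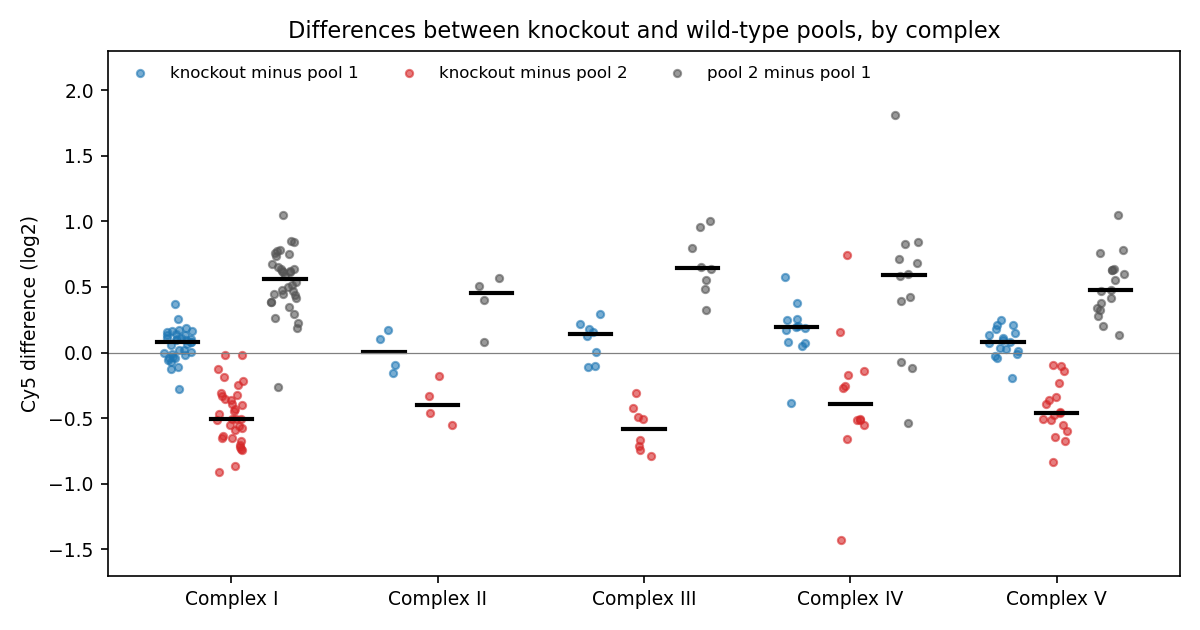
Cy5 differences (log2, vertical axis) of knockout minus pool 1, knockout minus pool 2 and pool 2 minus pool 1 for each tested gene, by complex. Points are genes and bars are medians, on the scale that gives all Cy5 channels 1 distribution. Median differences from pool 1 run from 0.00 in complex II to 0.19 in complex IV, and from pool 2 from -0.59 in complex III to -0.39 in complex IV. With median centring the differences from pool 2 turn to between 0.21 and 0.53, against 0.59 for all genes.

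Promoters were examined because the members moved together between the pools. RefSeq windows on GRCm38.p6, from 250 bases before to 50 after a start site, were at hand for 67 of the 82 genes. NRF1, GABP (an ETS factor) and YY1 are transcription factors known for binding at promoters of respiratory genes. Their motifs were searched by their letters on both strands, CCGGAAG for ETS and AAGATGGCG for YY1. The NRF1 motif was a pattern of letters with 1 open position, and its matches stand in capitals in the windows below. The NRF1 motif was in 23.9% of the member genes against 5.19% of all 27025 genes in the table, the ETS motif in 25.4% against 9.93% and the YY1 motif in 10.4% against 1.64%. At least 1 of them was in 34 of the 67 members, or 50.7%, against 15.1% of all genes. The share was 73.3% in complex V, 45.2% in complex I and 23.1% in complex IV, and 3 of 5 complex III genes and 3 of 3 complex II genes with a window held at least 1. The share of all genes covers every gene with a window, tested on the arrays or not. No share over the tested genes was computed, so the members were not set against other expressed genes. A match is a description of letters and does not show a bound site.

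The windows below run from 120 bases before to 30 after the start site, written 5′ to 3′ on the gene's strand, with every motif match in capitals. They show 1 gene of each complex with a match, and Cox7a1, the gene with the largest difference between the pools, which has none in this window. They lie at Ndufb4 at chr16:37654339-37654488 on the minus strand, Sdha at chr13:74350211-74350360 on the minus strand, Uqcr11 at chr10:80406792-80406941 on the minus strand, Cox6a1 at chr5:115348929-115349078 on the minus strand, Atp5j at chr16:84834947-84835096 on the minus strand, Cox7a1 at chr7:30184051-30184200 on the plus strand.
Ndufb4: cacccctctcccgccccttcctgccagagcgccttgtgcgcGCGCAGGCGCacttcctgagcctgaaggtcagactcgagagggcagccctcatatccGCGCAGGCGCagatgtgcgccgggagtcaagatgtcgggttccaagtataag
Sdha: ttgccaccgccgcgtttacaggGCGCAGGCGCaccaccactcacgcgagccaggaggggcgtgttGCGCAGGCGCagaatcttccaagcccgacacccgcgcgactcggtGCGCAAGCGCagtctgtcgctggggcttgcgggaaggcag
Uqcr11: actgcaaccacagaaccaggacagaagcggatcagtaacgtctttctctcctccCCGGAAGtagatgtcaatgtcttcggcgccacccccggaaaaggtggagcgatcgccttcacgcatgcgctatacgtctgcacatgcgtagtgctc
Cox6a1: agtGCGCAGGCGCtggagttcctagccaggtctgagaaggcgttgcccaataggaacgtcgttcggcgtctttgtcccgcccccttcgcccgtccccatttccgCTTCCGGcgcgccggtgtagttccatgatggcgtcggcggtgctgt
Atp5j: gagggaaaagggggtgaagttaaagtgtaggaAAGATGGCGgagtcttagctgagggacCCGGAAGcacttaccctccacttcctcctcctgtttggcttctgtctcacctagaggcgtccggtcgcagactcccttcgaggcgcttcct
Cox7a1: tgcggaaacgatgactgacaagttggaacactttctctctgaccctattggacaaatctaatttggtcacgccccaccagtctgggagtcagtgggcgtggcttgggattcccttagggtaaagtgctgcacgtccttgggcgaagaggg
Ndufb4 carries 2 NRF1 matches and Sdha 3, Uqcr11 carries an ETS match, Cox6a1 an NRF1 and an ETS match, and Atp5j a YY1 and an ETS match.

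Members with and without a motif in the 300-base window differed little in how far pool 2 lay above pool 1. In Cy5 the median difference was 0.56 in the 16 tested genes with an NRF1 match and 0.55 in the 47 without. It was 0.63 in the 17 genes with an ETS match and 0.51 in the 46 without, and 0.52 in the 7 genes with a YY1 match and 0.57 in the 56 without. The ranges overlapped in each case, from 0.08 to 0.83 with an NRF1 match and from -0.54 to 1.81 without.

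Complex I, the NADH dehydrogenase, had 34 tested genes. All 34 were lower in knockout than in pool 2 (median -0.50), 25 of them by at least 0.32 on both arrays, and 33 were higher in pool 2 than in pool 1 (median 0.56). Against pool 1, 23 of 34 were higher in knockout and the median was 0.08. With median centring the complex I median was 0.41 for knockout minus pool 2, under the 0.59 of all genes, so the complex was lower only relative to the other genes on that scale.

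Ndufb8, a membrane-arm accessory subunit that is often used as a marker of assembled complex I, had Cy5 levels of 12.50 and 12.47 in knockout, 12.61 in pool 1 and 13.39 in pool 2. Both knockout arrays were below both pools, narrowly below pool 1, and the fitted difference from wild type was -0.52 ± 0.28 (SE, limma adjusted p = 0.802). Ndufs6, an accessory subunit of the matrix arm, had levels of 11.10 and 11.06 in knockout, 11.19 in pool 1 and 11.81 in pool 2. It followed the same order, with a fitted difference of -0.42 ± 0.23 (limma adjusted p = 0.802) that turned to 0.12 with median centring. Ndufs4, another accessory subunit of that arm, had levels of 10.10 and 10.17 in knockout against 10.19 in pool 1 and 10.64 in pool 2, again below both. Ndufb4, a membrane-arm subunit whose promoter is printed above, had 11.82 and 11.98 in knockout, 11.94 in pool 1 and 12.62 in pool 2, so its knockout arrays straddled pool 1.

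Ndufa5, an accessory subunit of the matrix arm, had levels of 13.29 and 13.49 in knockout, 13.02 in pool 1 and 13.41 in pool 2. Its knockout arrays were above pool 1, by a mean of 0.37, and lay on either side of pool 2. Ndufa12, an accessory subunit, had 12.20 and 12.37 in knockout, 12.15 in pool 1 and 12.41 in pool 2 on its brightest probe. Its 3 probes gave knockout minus wild-type differences of 0.01, -0.19 and -0.16, which disagree in sign, and pool 2 minus pool 1 differences of 0.26, 0.65 and 0.59, which do not.

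Ndufa4, named as a complex I gene and counted here by its symbol although its protein is now placed with complex IV, had levels of 10.92 and 10.90 in knockout, 10.84 in pool 1 and 11.34 in pool 2. Ndufv1, the subunit that binds NADH and FMN, could be set against pool 2 only, with 11.57 and 11.45 in knockout and 12.03 in pool 2.

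The 29 tested accessory genes of complex I ran from 0.18 (Ndufa7) to 1.05 (Ndufv3, an accessory subunit of the NADH-oxidising tip) for pool 2 minus pool 1 in Cy5. Their median was 0.61. These are values of the brightest probe of each gene, and other probes gave 0.41 for Ndufa7 and as little as 0.67 for Ndufv3.

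Complex II, succinate dehydrogenase, is also an enzyme of the citric acid cycle. Its 4 genes had a median of 0.00 against pool 1, -0.40 against pool 2 and 0.45 for pool 2 minus pool 1. Sdha, the flavoprotein that oxidises succinate, had levels of 8.51 and 8.50 in knockout, 8.60 in pool 1 and 8.68 in pool 2. These are the closest pools of the complex, and the fitted difference of -0.14 ± 0.11 (limma adjusted p = 0.805) turned to 0.36 with median centring. A dimmer Sdha probe had the pools in the other order, with pool 2 minus pool 1 at -0.04.

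Sdhb, the iron-sulphur subunit, had levels of 10.29 and 10.20 in knockout, 10.07 in pool 1 and 10.58 in pool 2. Sdhc, a membrane anchor, had 9.91 and 10.12 in knockout, 10.16 in pool 1 and 10.56 in pool 2, both arrays below both pools. Its fitted difference was -0.35 ± 0.18 (limma adjusted p = 0.802) and turned to 0.20 with median centring. Sdhd, the other anchor, had 11.37 and 11.57 in knockout, 11.37 in pool 1 and 11.93 in pool 2, so its knockout arrays began at the level of pool 1.

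Complex III, the cytochrome bc1 complex, had 8 tested genes and the widest distance between the pools, a median of 0.64 in Cy5. All 8 were lower in knockout than in pool 2 (median -0.59) and 7 of them by at least 0.32 on both arrays. Uqcrc1 and Uqcrc2, the core proteins on the matrix side, were below both pools on both knockout arrays. Uqcrc1 had levels of 12.14 and 12.08 in knockout, 12.22 in pool 1 and 12.77 in pool 2, a fitted difference of -0.39 ± 0.21 (limma adjusted p = 0.802) that turned to 0.09 with median centring. Uqcrc2 had 11.72 and 11.67 in knockout, 11.80 in pool 1 and 12.12 in pool 2, a fitted difference of -0.27 ± 0.15 (limma adjusted p = 0.802) that turned to 0.27.

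Uqcr10 and Uqcr11, small supernumerary subunits, showed the wide gap to pool 2. Uqcr10 had 13.27 and 13.37 in knockout, 13.31 in pool 1 and 14.11 in pool 2. Uqcr11, printed above with its ETS match, had 13.31 and 13.25 in knockout, 13.07 in pool 1 and 14.02 in pool 2. In both genes the 3 low arrays lay within a narrow band and pool 2 stood apart.

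Uqcrfs1, the Rieske iron-sulphur protein that carries electrons to cytochrome c1, had 10.50 and 10.53 in knockout, 10.33 in pool 1 and 10.82 in pool 2. Uqcrh, the hinge protein that binds cytochrome c1, had 14.13 and 14.11 in knockout, 13.96 in pool 1 and 14.61 in pool 2. Both placed knockout between the pools, as did Uqcrq, a small subunit, with a difference between the pools of 1.00.

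Complex IV, cytochrome c oxidase, has several subunits that exist as isoforms with restricted expression. Of its 12 tested genes, 9 were higher in pool 2 than in pool 1 (median 0.59) and 10 were lower in knockout than in pool 2 (median -0.39). Cox7a1, an isoform known from heart and skeletal muscle, had the largest difference between the pools of all members. Its Cy5 levels were 8.73 and 8.89 in knockout, 8.43 in pool 1 and 10.24 in pool 2, so pool 2 stood 3.50-fold above pool 1 and the knockout at 0.37 of pool 2. In Cy3 it was at 9.02 and 8.96 in pool 2 and 7.63 in pool 1, a difference of 1.36. The fitted difference of knockout from the mean of the pools, -0.53 ± 0.60 (limma adjusted p = 0.836), rests on pool 2 and was 0.38 without it.

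Of 8 striated muscle markers, 5 and 4 were well above background on the knockout arrays and 1 on each pool's self array in Cy5, and the summed level of the 4 tested was 514 and 475 in knockout, 552 in pool 1 and 627 in pool 2 (intensity). Myh7 was lower in knockout than in pool 2, by a difference of -0.92, whereas Acta1, Tnnt2 and Tnnc2 were higher by 0.21, 0.20 and 0.17. The list median was 0.19 for knockout minus pool 2 and 0.12 for pool 2 minus pool 1, and its part in the result was not tested. At most 1 of the 4 tested could enter the filter through the self arrays. The others entered because they were above background on the knockout arrays. The filter itself thus favours higher knockout values in this list, and no direction is drawn from them. Actc1, Ckm and Mb were above background on no array, and neither were the brown fat markers Ucp1 and Cidea. Cox7a2, the isoform of the same subunit found in most tissues, had 11.75 and 11.88 in knockout, 11.63 in pool 1 and 12.48 in pool 2, the same order of arrays over a smaller span. Cox7a2l, a related protein that takes part in joining complexes III and IV into supercomplexes, went another way. It had 10.13 and 9.94 in knockout, 10.42 in pool 1 and 10.31 in pool 2, below both pools by a fitted 0.33 ± 0.13 (limma adjusted p = 0.802), which turned to 0.23 higher with median centring.

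Cox7c, a small subunit present in all tissues, was the 1 member above both pools on both knockout arrays. It was read by 1 probe only, at a lower level than every other complex IV gene whose levels are given here. Its levels were 7.63 and 7.69 in knockout, 7.46 in pool 1 and 6.92 in pool 2, a fitted difference of 0.47 ± 0.21 (limma adjusted p = 0.802). Pool 2 was below pool 1 in both dyes, by 0.54 in Cy5 and 0.25 in Cy3, against the run of the other members.

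Cox6a1, the liver-type isoform of subunit VIa, was the gene furthest above pool 1, with 15.34 and 15.49 in knockout, 14.84 in pool 1 and 15.67 in pool 2. It was the 1 member to exceed pool 1 by at least 0.32 on both arrays, and its promoter is printed above. Cox4i1, the common isoform of subunit IV, had 14.05 and 13.95 in knockout, 13.95 in pool 1 and 14.55 in pool 2. Cox6b1 had 9.61 and 9.70 in knockout, 9.46 in pool 1 and 10.17 in pool 2. Its isoform Cox6b2, known from testis, had 8.98 and 9.21 in knockout, 9.01 in pool 1 and 8.93 in pool 2, with no order between the pools larger than 0.07 in either dye.

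Cox7b, a small subunit, had 12.71 and 12.63 in knockout, 12.60 in pool 1 and 13.18 in pool 2. Cox8a, the common isoform of subunit VIII, had 13.92 and 14.14 in knockout, 13.78 in pool 1 and 14.17 in pool 2. The restricted isoforms Cox4i2, Cox6a2, Cox7b2, Cox8b and Cox8c were not well above background on any array in either usable dye. Cox5a and Cox6c differed between the pools by 0.42 and 0.68 in Cy5, and Cox5b could be set against pool 2 only, with 13.76 and 13.85 in knockout and 14.21 in pool 2.

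Complex V, the ATP synthase, had 17 tested genes, all higher in pool 2 than in pool 1 (median 0.48) and all lower in knockout than in pool 2 (median -0.46). Its catalytic F1 head differed least between the pools. The 5 head genes (Atp5a1, Atp5b, Atp5c1, Atp5d and Atp5e) had a median of 0.28, the 4 genes of the peripheral stalk 0.36 and the 8 genes of the membrane part 0.63 in Cy5, and 0.38, 0.39 and 0.52 in Cy3. These groups were chosen after the values were seen.

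Atp5b, the catalytic beta subunit, had 14.11 and 14.19 in knockout, 14.04 in pool 1 and 14.25 in pool 2 on its brightest probe. Its 3 probes disagreed in sign, with knockout minus wild-type differences of 0.01, -0.10 and -0.17 and pool 2 minus pool 1 differences of 0.20, -0.34 and -0.19, so no direction was settled for it. Atp5c1, the gamma subunit of the central stalk, had 13.32 and 13.18 in knockout, 13.11 in pool 1 and 13.39 in pool 2. Atp5e, the epsilon subunit, had 13.30 and 13.14 in knockout, 13.23 in pool 1 and 13.86 in pool 2, with its knockout arrays on either side of pool 1.

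Atp5pb, subunit b of the peripheral stalk, had 11.58 and 11.50 in knockout, 11.73 in pool 1 and 12.06 in pool 2. It was below both pools by a fitted 0.35 ± 0.15 (limma adjusted p = 0.802) and turned to 0.19 higher with median centring. Atp5h, subunit d of that stalk, had 12.63 and 12.62 in knockout, 12.65 in pool 1 and 12.99 in pool 2, and its 2 probes gave knockout minus wild-type differences of -0.20 and 0.02. Atp5k, subunit e of the membrane part, had 12.13 and 12.17 in knockout, 12.19 in pool 1 and 12.83 in pool 2, a fitted difference of -0.36 ± 0.23 (limma adjusted p = 0.802) that turned to 0.12 with median centring.

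Subunit c forms the rotating ring, and 3 genes encode the same mature protein behind different import signals. Atp5g1 is the copy known to follow oxidative capacity. It had 11.47 and 11.66 in knockout, 11.35 in pool 1 and 12.40 in pool 2, a 2.06-fold difference between the pools. Atp5g2 had 13.08 and 13.23 in knockout, 13.08 in pool 1 and 13.49 in pool 2, a 1.33-fold difference on its brightest probe. Its 2 tested probes gave pool 2 minus pool 1 differences of 0.42 and 0.15 and disagreed in sign for knockout minus pool 1. Atp5g3 had 13.14 and 13.30 in knockout, 12.97 in pool 1 and 13.61 in pool 2, a 1.55-fold difference. All 3 put pool 2 highest, and Cy3 differences of 1.01, 0.34 and 0.60 kept the same order of sizes.

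The pools could be compared in Cy3 as well, since pool 2 was labelled with it on 2 arrays and pool 1 on 1. The median member was 0.49 higher in pool 2 in Cy3 against -0.02 over all genes. In Cy5 and in both Cy3 channels alike, 71 of 75 members were higher in pool 2, against 34.6% of all genes. By complex the Cy3 medians were 0.48, 0.49, 0.59, 0.44 and 0.48 for complexes I to V. A difference of at least 0.32 toward pool 2 was present in both dyes in 55 of 75 members, against 8.74% of all genes, and in Cy5 alone in 62 against 14.8%. In Cy5, 1 member (Cox7c) was lower in pool 2 by that size, against 20.1% of all genes, and in both dyes 0 were, against 10.9%. Both dyes draw on the same pools, so they repeat the labelling and not the mice, and each pool stands for 1 sample with no replicate check. Across the 75 genes the difference in Cy5 and that in Cy3 correlated at r = 0.89, as a description over genes that share arrays and pools.

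**Figure D3:**
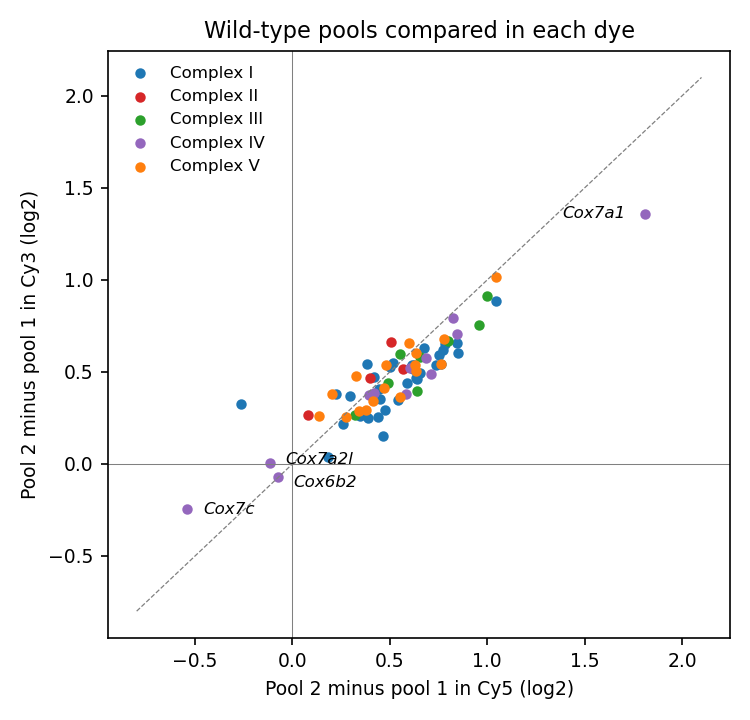
Pool 2 minus pool 1 in Cy5 (horizontal axis) and in Cy3 (vertical axis), log2, 1 point for each of 75 genes, coloured by complex, with the line of equal values dashed. Most points lie in the upper right; Cox7a1 is furthest out and Cox7c is low in both dyes. With median centring the Cy5 median turns to -0.12, against -0.54 for all genes, and the Cy3 median stays positive at 0.81.

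KO_vs_WT replicate 2 allowed knockout (Cy5) and pool 2 (Cy3) to be compared on the same spots. There 72 of 75 members were lower in knockout, beside 6826 of 15975 of all genes. The member median was -0.40 against 0.05 over all genes, and 50 members were lower by at least 0.32, against 11.2% of all genes. After the dye difference measured on the pool 2 self array was taken off, the median was -0.47 and 55 members reached that size, against 11.9% of all genes. By complex these corrected medians were -0.50, -0.37, -0.53, -0.38 and -0.48. Pool 1 could not be compared in this way, because its Cy3 channel opposite the knockout was nearly empty.

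Other genes that serve the chain were described from lists, none of which had a member past the limma threshold. Electron carriers and dehydrogenases that feed ubiquinone or cytochrome c (7 genes) had a median pool 2 minus pool 1 difference of 0.64 in Cy5. Cycs, cytochrome c, had 10.89 and 10.78 in knockout, 10.72 in pool 1 and 11.36 in pool 2, and Cyc1, the cytochrome c1 of complex III, had 11.90 and 12.06 in knockout, 11.88 in pool 1 and 12.53 in pool 2. The medians were 0.28 in 76 genes of the mitochondrial ribosome, 0.26 in 12 genes of the citric acid cycle and 0.24 in 36 assembly factors. All lay above the -0.04 of all genes and, apart from the carriers, under the 0.55 of the structural subunits.

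The regulators known for driving respiratory genes moved less, with a median of 0.10 over 11 genes, 6 higher in pool 2, in Cy5 and -0.03 over 9 genes, 4 higher, in Cy3. Esrra, a nuclear receptor of that group, had 8.73 and 8.82 in knockout, 8.59 in pool 1 and 9.18 in pool 2. Ppargc1a, the coactivator PGC-1 alpha, had 9.72 and 9.89 in knockout, 9.21 in pool 1 and 9.66 in pool 2, so that knockout stood above both pools, and its pools differed by 0.45 in Cy5 and 0.09 in Cy3. Nrf1 had 6.93 and 6.94 in knockout, 6.97 in pool 1 and 7.18 in pool 2.

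Genes of glycolysis and of the response to low oxygen took a different order from the respiratory genes. All 19 measured were higher in knockout than in pool 1 (median 0.34) and 18 than in pool 2 (median 0.44), beside 8031 and 9105 of all 16056 genes, while 7 were higher in pool 2 than in pool 1 (median -0.11). Slc2a1, the glucose transporter GLUT1, had 9.64 and 9.88 in knockout, 9.02 in pool 1 and 8.73 in pool 2. Ldha, lactate dehydrogenase A, had 12.86 and 13.06 in knockout, 12.52 in pool 1 and 12.12 in pool 2. None of the 19 passed the limma test, and the adjusted p was 0.802 for Slc2a1 and for Ldha.

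Markers of other nephron segments took the side of the respiratory genes where pool 2 was compared, but not for knockout minus pool 1. In that comparison 6 of 6 proximal tubule markers (median -0.84) and 5 of 6 loop and distal tubule markers (median -0.19) were lower. Of the respiratory genes, 55 of 75 were higher (median 0.10). The 6 measured proximal tubule markers were higher in pool 2 than in pool 1 by a median of 2.57 in Cy5 and 2.50 in Cy3, and their summed intensity was 3776 and 2250 in knockout, 5510 in pool 1 and 41705 in pool 2. The 6 measured markers of the loop and distal tubule were higher by 2.03 in Cy5 and 1.67 in Cy3, with sums of 2554 and 2434 in knockout, 2929 in pool 1 and 11609 in pool 2. Fbp1 and Slc34a1, a gluconeogenic enzyme and a phosphate transporter of the proximal tubule, differed between the pools by 3.40 and 3.19, and Umod and Slc12a1 of the thick ascending limb by 2.09 and 2.04. In both lists and in the respiratory genes pool 2 was high and the other 3 arrays were low. Principal cell markers had a median pool 2 minus pool 1 difference of -0.41 (1 of 8 higher), intercalated cell markers -0.35 (2 of 8), stromal markers -0.83 (1 of 7), erythroid markers -1.21 (0 of 4) and ureteric bud tip markers 0.24 (4 of 6). The tip markers were lower in knockout than in either pool in 6 of 6 genes, with medians of -0.40 against pool 1 and -0.63 against pool 2. Of all 16056 genes, 8022 were lower in knockout than in pool 1 and 6949 than in pool 2. Principal cell markers were higher in knockout than in each pool in 7 of 8 genes, with medians of 0.37 and 0.71, beside 8031 and 9105 of all genes. The part of these cell types in the results was not tested. In sorted cells taken in bulk, more cells of a segment and more RNA per cell cannot be told apart.

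A spiked-in control RNA gave less signal in the pool 2 channels than in the other usable channels. The median background-subtracted signal of the E1A control spots was 5.60 in Cy5 of pool 2 against 1786 to 4606 in the other Cy5 channels. It was 57.6 and 50.4 in both Cy3 channels of pool 2 against 893 in the usable one of pool 1. The unused Cy3 channel of KO_vs_WT replicate 1, which carried pool 1, had 0.27. The part of this control RNA in the result was not tested.

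**Figure D4:**
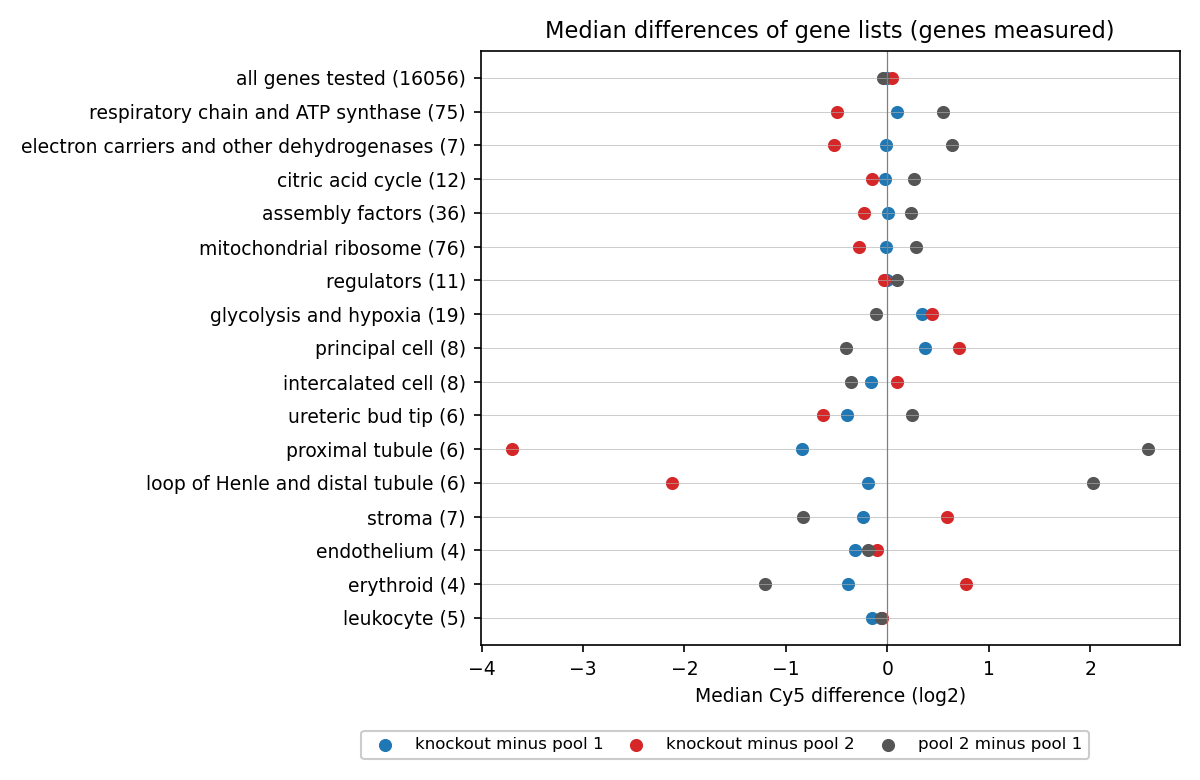
Median Cy5 difference (log2, horizontal axis) of knockout minus pool 1, knockout minus pool 2 and pool 2 minus pool 1 for all genes, the respiratory chain and ATP synthase, other mitochondrial and glycolytic lists and cell type lists, with the number of genes measured in brackets. For pool 2 minus pool 1 and knockout minus pool 2, the proximal tubule and loop of Henle lists lie furthest from 0, on the side of the respiratory genes. For knockout minus pool 1 they are at -0.84 and -0.19, while the respiratory genes are at 0.10. With median centring the median of all genes itself moves to -0.54 for pool 2 minus pool 1 and to 0.59 for knockout minus pool 2, which turns the sign of the respiratory medians.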

How the data were processed

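All 4 arrays lay on 1 slide of 1 scan, and Agilent Feature Extraction 10.7.3.1 read them, per the file headers. The deposited files give each spot's median intensity and local background in Cy3 and Cy5, and a processed intensity corrected by the scanner software, per the file headers. Processed Cy5 over Cy3 is also deposited as a log10 ratio, and the deposited series table equals it in 45018 of 45018 spots on each array (to within 1% plus 0.005); its median over spots was 0.173 for KO_vs_WT replicate 1 and 0.0 for each other array, and it was used in this check only. Mean signals were planned, but the files hold medians, which were used.

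Cy5 medians were background-corrected (normexp, offset 50), quantile-normalized over 4 channels and tested on the log2 scale with limma 3.58.1 (lmFit, eBayes, Benjamini-Hochberg, R 4.3.3). Usable Cy3 channels were normalized apart. Non-uniform or outlier spots were set missing, and a dark patch of 274 spots on WT_self replicate 1, which holds no member, was left out. The filter kept probes that exceeded background well in Cy5 on both knockout or both self arrays, and the brightest probe stood for a gene. Symbols came from a RefSeq table of GRCm38.p6 through accessions. Size calls used a log2 difference of 0.32. The fit was tested on simulated data. Named genes were the 4 with the smallest p and the 2 highest and 2 lowest differences of each complex, isoforms with restricted expression and their common partners, subunit c genes and genes whose probes disagree; other members and list genes were chosen after their values were seen. Replicate numbers did not pair the samples (r = 0.04 between deviations over 16056 genes). Alternatives were the background correction, scaling, probe filter, probe choice, dark patch, replicate block, dye ratios and each array left out. Values of 1 member are not reported here. Members and lists were chosen with earlier results of these data known.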

Additional observations from a re-analysis of the deposited data

How the results depend on the processing

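Under median centring the member median for knockout minus wild type was 0.31 and the fitted differences turned to 0.12 for Atp5k, 0.19 for Atp5pb, 0.23 for Cox7a2l, 0.12 for Ndufs6, 0.36 for Sdha, 0.20 for Sdhc, 0.092 for Uqcrc1 and 0.27 for Uqcrc2. For knockout minus pool 2 the centred medians of complexes I to V were 0.41, 0.53, 0.21, 0.46 and 0.33 (all members 0.39). For pool 2 minus pool 1 in Cy5 they were -0.14, -0.39, -0.027, -0.070 and -0.10 (all members -0.12), and in Cy3 those of complexes II to V were 0.72, 0.97, 0.83 and 0.84 (all members 0.81). The centred medians of all genes moved with them, as given above, and the cause was not tested. With each array left out in turn, the member median ranged from -0.49 (without WT_self replicate 1) to 0.10 (without WT_self replicate 2), genes past the limma threshold from 0 to 2538 higher and 0 to 1702 lower, and members from 0 to 1 higher and 0 to 52 lower. The upper counts were found without WT_self replicate 1, where the lone pool 2 is assumed to vary like the knockout arrays, and without WT_self replicate 2 there was 1 gene higher. Atp6ap2 ranged from -0.72 to -0.36 and was -0.61 without WT_self replicate 1 (limma adjusted p = 0.037), and Cox7a1 from -1.43 to 0.38. With the replicate number as a block, 0 members passed the threshold either way and the member median stayed at -0.19, with no call changed. Of the values that answer a comparison, 166 kept their direction and side of the threshold, 25 moved and 1 newly passed it. Of the values for single genes and complexes, 178 kept them, 12 moved, 9 newly passed the threshold and 9 were classed as reversed. The 9 are not a count of all sign changes. More fitted differences and medians than that turned sign with median centring, as given above, so values classed as moved may include sign changes. Precision is set by 2 arrays a group, which gave a median standard error of 0.21.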
